A study of Mus musculus with 48 samples.

Results

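Retained-intron transcripts are annotated RNAs of a gene that keep, as part of the mature molecule, sequence that coding transcripts of the same gene remove as an intron. They were taken here as every transcript in the deposited tables whose transcript type in the GENCODE M21 mouse annotation is retained_intron, which gave 9506 of 52927 transcripts (17.96%). The tables hold single cells sorted by FACS from the aorta-gonad-mesonephros region of C57 mice, all wild type and at embryonic day 10: 24 are titled HEC and 24 AEC, and no treatment is named. HEC and AEC are commonly read as hemogenic and arterial endothelial cells; HEC cells are tagged as hematopoietic stem cells in another label, so groups followed the titles. PolyA RNA was read as full-length cDNA on a Nanopore PromethION instrument, and each value is a number of reads per 10000 reads of a cell. No source used here names the animal of a cell, so each group counted as 1 sample: no test was made, and an SD describes the spread between cells of a group.

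An intron that stays in an RNA often brings a stop codon into the reading frame, and such an RNA may be held in the nucleus or degraded by nonsense-mediated decay, so that it yields less protein than the spliced form. Intron retention is known as a means by which splicing factors limit their own levels and as part of the maturation of blood cells. In annotations the label is wider than this idea: it is also given to partial transcripts that start or stop inside an intron.

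The first set of sequences shows introns that were kept whole, chosen as the short ones in genes described here. In each, capitals mark the first and last pair of bases, the donor GT and the acceptor AG that the spliceosome normally uses. Coordinates are those of mm10 (GRCm38), the build of the annotation: *Ppdpf-206* at chr2:181187737-181187808 (plus strand), *Prelid1-202* at chr13:55324445-55324526 (plus strand), *Hnrnpl-210* at chr7:28821274-28821391 (plus strand), *Egfl7-213* at chr2:26592281-26592417 (plus strand), *Copa-202* at chr1:172114834-172115022 (plus strand) and *Ncl-202* at chr1:86352320-86352509 (minus strand). They measured 72 bases in *Ppdpf-206*, 82 in *Prelid1-202*, 118 in *Hnrnpl-210*, 137 in *Egfl7-213*, 189 in *Copa-202* and 190 in *Ncl-202*.
Ppdpf-206: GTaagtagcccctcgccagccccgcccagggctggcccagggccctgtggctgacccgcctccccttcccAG
Prelid1-202: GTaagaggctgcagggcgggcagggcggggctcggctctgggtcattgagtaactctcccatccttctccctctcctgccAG
Hnrnpl-210: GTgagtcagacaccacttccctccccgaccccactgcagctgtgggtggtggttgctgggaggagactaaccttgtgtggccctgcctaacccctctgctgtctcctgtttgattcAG
Egfl7-213: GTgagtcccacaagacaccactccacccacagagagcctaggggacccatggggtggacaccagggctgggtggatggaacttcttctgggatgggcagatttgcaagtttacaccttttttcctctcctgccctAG
Copa-202: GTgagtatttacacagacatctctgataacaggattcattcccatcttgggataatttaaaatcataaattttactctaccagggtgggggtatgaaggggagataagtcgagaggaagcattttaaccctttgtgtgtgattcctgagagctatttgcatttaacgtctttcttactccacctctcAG
Ncl-202: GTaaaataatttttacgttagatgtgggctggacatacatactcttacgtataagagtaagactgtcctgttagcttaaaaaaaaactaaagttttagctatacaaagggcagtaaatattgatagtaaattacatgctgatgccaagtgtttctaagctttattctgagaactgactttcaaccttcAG

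The second set shows transcripts that hold no whole intron but begin inside one, chosen because they carry high or differing shares. The stretch from the first base of the transcript is printed, with intronic bases in lower case and the first 20 bases of the coding transcripts' exon in capitals: *Gnb2-213* at chr5:137528888-137528920 (minus strand), *Wnk1-208* at chr6:119927215-119927261 (minus strand), *Cpxm1-202* at chr2:130393191-130393276 (minus strand), *Capns1-208* at chr7:30192881-30192972 (minus strand), *Ctnnb1-215* at chr9:120959216-120959328 (plus strand) and *Aplp2-207* at chr9:31153480-31153645 (minus strand). Only 13 bases of *Gnb2-213* and 27 bases of *Wnk1-208* lay before the exon, out of 712 and 2934 bases of transcript (1.83% and 0.920%). The stretch was 66 bases in *Cpxm1-202*, 72 in *Capns1-208*, 93 in *Ctnnb1-215* and 146 in *Aplp2-207*.
Gnb2-213: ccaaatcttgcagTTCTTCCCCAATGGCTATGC
Wnk1-208: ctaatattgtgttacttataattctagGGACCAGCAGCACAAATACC
Cpxm1-202: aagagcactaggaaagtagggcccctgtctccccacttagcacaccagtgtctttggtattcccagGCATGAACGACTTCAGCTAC
Capns1-208: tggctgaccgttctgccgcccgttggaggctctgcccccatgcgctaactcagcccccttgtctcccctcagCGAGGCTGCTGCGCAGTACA
Ctnnb1-215: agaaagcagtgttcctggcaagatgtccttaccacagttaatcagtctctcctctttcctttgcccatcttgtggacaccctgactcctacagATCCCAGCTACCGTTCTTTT
Aplp2-207: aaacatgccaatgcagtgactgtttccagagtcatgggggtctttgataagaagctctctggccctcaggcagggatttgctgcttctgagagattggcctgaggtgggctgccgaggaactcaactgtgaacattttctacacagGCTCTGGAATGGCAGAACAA

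The depth was 96410 to 8897958 reads in HEC cells and 13261 to 4883854 reads in AEC cells, and 1 HEC cell and 6 AEC cells had under 100000. The labels were checked on marker lists, as summed reads per 10000. Over 11 hemogenic and blood genes the median cell had 13.9 in HEC (range 1.52 to 21.7) and 1.87 in AEC (0.153 to 10.1), and over 8 arterial genes 3.33 in HEC (1.04 to 43.0) and 30.9 in AEC (0.899 to 66.1). Over 10 erythroid genes the median was 40.01 in HEC (26.4 to 188) and 15.2 in AEC (10.5 to 166), and over 7 of 8 mesenchymal genes found it was 3.79 in HEC (1.19 to 31.3) and 3.404 in AEC (0.781 to 147). Over 6 endothelial genes it was 10.8 in HEC (3.33 to 43.9) and 21.1 in AEC (1.29 to 63.5). None of these 5 lists had a member at 0 in every cell of either group. Over 24 cells of a group, the Spearman coefficient of the summed level with the share of reads on retained-intron transcripts was 0.227 in HEC and 0.154 in AEC for the hemogenic list, 0.243 and 0.237 for the arterial, 0.295 and 0.257 for the erythroid, -0.175 and -0.191 for the mesenchymal, and 0.470 and 0.0383 for the endothelial list, in the same order. The part of these lists in the shares of single genes was not tested. AEC 8 had 34.9% of its reads on ribosomal RNA, against a median of 4.50% in AEC cells.

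Of the 9506 retained-intron transcripts, 9260 were above 0 in at least 1 cell and 246 were at 0 in all 48. They belonged to 5603 of the 21435 genes in the tables (26.1%), of which 5472 were protein-coding genes. A single such transcript was carried by 3344 genes, and 161 genes carried 5 or more, up to 14 in *Gas5*, a noncoding host gene of small nucleolar RNAs. The reads were concentrated: the 10 most abundant retained-intron transcripts held 12.4% of the summed value of all of them, and the 100 most abundant held 29.9%. Exactly 1 of them was above 0 in every one of the 48 cells.

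Retained-intron transcripts took 2.88 ± 0.475% of the reads of a cell in HEC cells and 3.30 ± 0.809% in AEC cells (SD, n = 24 cells each). The lowest, median and highest cell had 2.04%, 2.96% and 4.16% in HEC, and 1.94%, 3.08% and 5.29% in AEC. The groups overlapped along most of their range, and the difference of -0.418 percentage points was smaller than the spread between cells of either group. It was -0.118 points by the medians. Transcripts annotated as targets of nonsense-mediated decay took 1.96 ± 0.325% in HEC cells and 2.36 ± 0.721% in AEC cells (SD, n = 24 cells each), a difference of -0.401 points, and processed transcripts 1.95 ± 0.285% in HEC cells and 2.09 ± 0.546% in AEC cells. Within a group, cells with a larger share of retained-intron reads also had a larger share of processed transcripts: Pearson r was 0.778 and the Spearman coefficient 0.719 over 24 HEC cells, and 0.529 and 0.710 over 24 AEC cells, where the cells share a library method and shares of 1 cell add to a fixed total. Without the 2 cells farthest from the median, Pearson r was 0.700 over 22 HEC cells and 0.603 over 22 AEC cells. With the share of targets of nonsense-mediated decay, Pearson r was 0.654 and the Spearman coefficient 0.592 in HEC cells, and 0.179 and 0.423 in AEC cells. With the logarithm of depth the values were -0.374 and -0.381 in HEC cells and 0.0788 and 0.0800 in AEC cells.

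**Figure D1:**
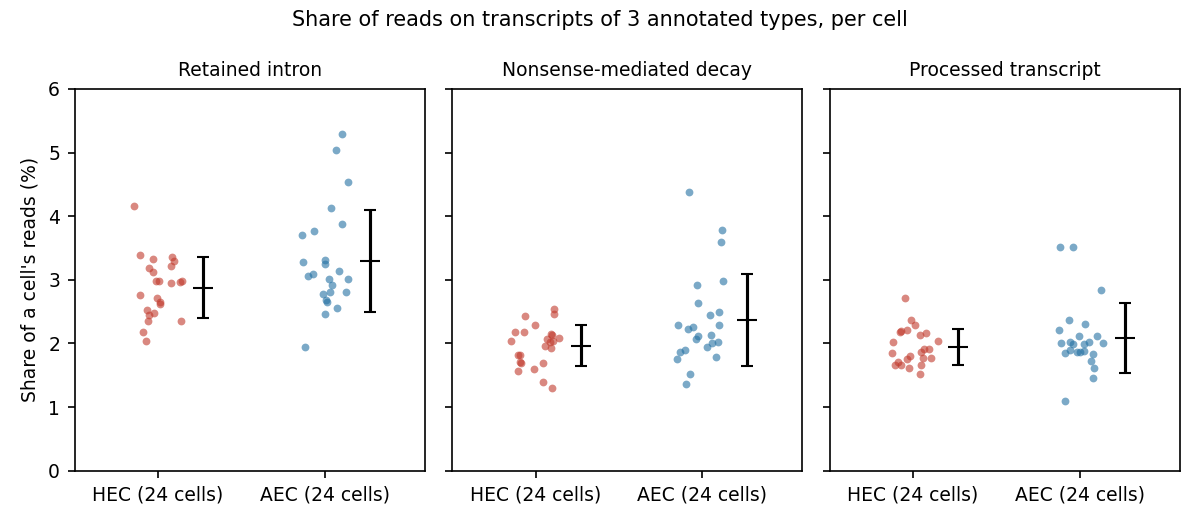
Each point is the share of a cell's reads (%, vertical axis) on transcripts annotated as retained intron, as targets of nonsense-mediated decay or as processed transcript, for 24 HEC and 24 AEC cells; the bar beside the points is the mean ± SD. The retained-intron means were 2.88% in HEC cells and 3.30% in AEC cells, and the points of the groups overlap in each panel.

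Gene by gene, the share was read for genes with a mean of 1 read per 10000 or more in each group. Of 1230 such genes, 642 (52.2%) carried retained-intron transcripts, 1304 in all, and each of the 642 is counted here. At the threshold, the lower of the group means was 1.00 for *Sdf4*, just inside, and 0.996 for *Ahsa1*, just outside. The pooled share is the retained-intron value summed over the cells of a group as a percent of the gene's summed value, and the mean per cell is the mean of that percent over cells in which the gene was above 0. The median pooled share over the 642 genes was 0.943% in HEC cells and 0.937% in AEC cells, and the median of the means per cell was 1.03% in HEC cells and 1.33% in AEC cells. A pooled share under 1% was found for 323 genes in HEC cells and 327 in AEC cells, and of 0 for 28 genes in HEC cells and 98 in AEC cells. Over genes, the pooled shares of the groups had a Pearson r of 0.883 and a Spearman coefficient of 0.761, which describes these 642 genes, measured in the same libraries.

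A high share was the exception. A pooled share of 10% or more was reached by 92 genes in HEC cells, 99 in AEC cells and 70 in both (10.9% of the 642). For comparison, 41 of 244 genes with transcripts that are targets of nonsense-mediated decay (16.8%) and 38 of 334 with processed transcripts (11.4%) reached 10% in both groups on those types. A pooled share of 50% or more was reached by 12 genes in HEC cells, 15 in AEC cells and 11 in both. High shares lay mostly in genes of low value: 43 of 283 genes (15.2%) with a mean between 1 and 2 reads per 10000 reached 10% in both groups, 19 of 207 (9.18%) between 2 and 5, 7 of 124 (5.65%) between 5 and 20, and 1 of 28 (3.57%) above 20. That gene was *Rps20*.

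For some genes the order of the groups hung on the weighting: of 63 named genes, it turned by the mean per cell in 11 and, with cells weighted by their reads, in 17. *Fn1*, which encodes the matrix protein fibronectin, had 82.6% of its value on retained-intron transcripts in HEC cells and 78.5% in AEC cells. The lowest, median and highest cell were 36.7%, 82.4% and 97.3% in HEC, against 0%, 90.3% and 99.2% in AEC. Of that value, 98.3% in HEC cells and 95.5% in AEC cells was 1 transcript, *Fn1-202* (chr1:71585526-71609567, minus strand), of 4022 bases, with 84.4% of its bases in exons of coding transcripts and an end 2 bases from a coding 3′ end. Weighted by reads in place of cells, the shares were 77.2% in HEC cells (exact Clopper-Pearson 95% interval 76.8 to 77.7%, 38737 reads) and 83.3% in AEC cells (82.9 to 83.6%, 42965 reads), so the order of the groups turned with the weighting. PCR copies are not independent molecules, and such intervals cover counting error only.

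*Ctnnb1*, the gene of beta-catenin, which links cadherins to the cytoskeleton and carries Wnt signals, had a pooled share of 71.3% in HEC cells and 72.7% in AEC cells. Its cells ran from 39.8% over a median of 75.8% to 95.1% in HEC, and from 0% over 78.8% to 100% in AEC. The AEC cells at 0% and 100% had only 3 to 5 reads of the gene. Among AEC cells with 20 reads or more of it, the range was 20.2% to 98.1%. *Ctnnb1-215* held 99.5% of that value in HEC cells and 98.3% in AEC cells; it has 1292 bases, 93 of them outside coding exons, and ends at the same base as a coding transcript. *Copa*, a coatomer subunit of vesicle traffic in the Golgi, had 78.9% in HEC cells and 78.1% in AEC cells, with *Copa-202* as the main transcript; weighted by reads it had 69.9% in HEC cells and 88.4% in AEC cells. *Prelid1*, a lipid transfer protein of mitochondria, had 66.8% in HEC cells and 59.7% in AEC cells, all of it on *Prelid1-202*, which differs from coding exons by the 82 bases printed above. Without AEC 12, which held 34.1% of the AEC retained-intron value of *Prelid1*, its difference turned from 7.11 to -3.15 points.

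*Ptbp1*, an hnRNP protein that binds pyrimidine tracts and represses exons, had a pooled share of 64.3% in HEC cells and 64.1% in AEC cells, on *Ptbp1-213*. The lowest, median and highest cell had 0%, 66.2% and 98.04% in HEC and 0%, 72.6% and 100% in AEC. *Uba2*, a subunit of the enzyme that activates SUMO, had a pooled share of 62.3% in HEC cells and 65.6% in AEC cells, and by the mean per cell 61.8% in HEC cells and 50.8% in AEC cells. Without AEC 17, which held 25.1% of the AEC value, the pooled difference was 3.51 points. By the summed value the main transcript differed, but in AEC cells the gap between the transcripts lay inside the spread between cells. *Uba2-210*, a single unspliced stretch of 1435 bases of which 4.53% lay in coding exons, held 92.4% of its retained-intron value in HEC cells and 43.8% in AEC cells. *Uba2-209*, which ends 26 bases from a coding 3′ end, held 7.54% in HEC cells and 56.2% in AEC cells. *Wnk1*, a kinase that regulates ion transport, had a pooled share of 60.6% in HEC cells and 53.9% in AEC cells, a mean per cell of 57.9% in HEC cells and 63.3% in AEC cells, and -4.17 points without AEC 1. *Ankrd17*, an ankyrin repeat protein, had 57.3% in HEC cells and 62.7% in AEC cells.

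*Fam221b*, which had 100% in every cell where it was above 0, and *Gm49708* had no protein-coding transcript in the tables, so no coding share could arise for them. Of the 642 genes, 7 were of this kind. No source used here says that the counting used strand, so reads of a gene on the opposite strand cannot be told apart where transcripts overlap. The overlap was 38.3% of the bases of *Wdr83os-203* (with *Wdr83*), 36.8% of *Ctnnb1-215* (*Ulk4*), 23.97% of *Gm49708-201* (*Gm49709*), 22.8% of *Ptbp1-213* (*Gm17134* and *Plppr3*), 15.4% of *Lbr-203* (*Dnah14*) and 12.1% of *Fam221b-202* (*Gm12481* and *Tmem8b*). The 20 highest shares also held *Aplp2*, *Capns1*, *Pkn2* and *Cpxm1*, described with the differences, and *Lbr*, a receptor for lamins in the nuclear envelope, *Sptbn1*, a spectrin of the membrane skeleton, *Ogt*, the enzyme that adds O-GlcNAc to proteins, *Mrpl57*, of the mitochondrial ribosome, and the RNA-binding protein genes *Hnrnpl* and *Ncl*. Their pooled shares ran from 31.7% (*Ogt*) to 46.9% (*Lbr*) in HEC cells and from 35.9% (*Mrpl57*) to 66.3% (*Lbr*) in AEC cells.

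**Figure D2:**
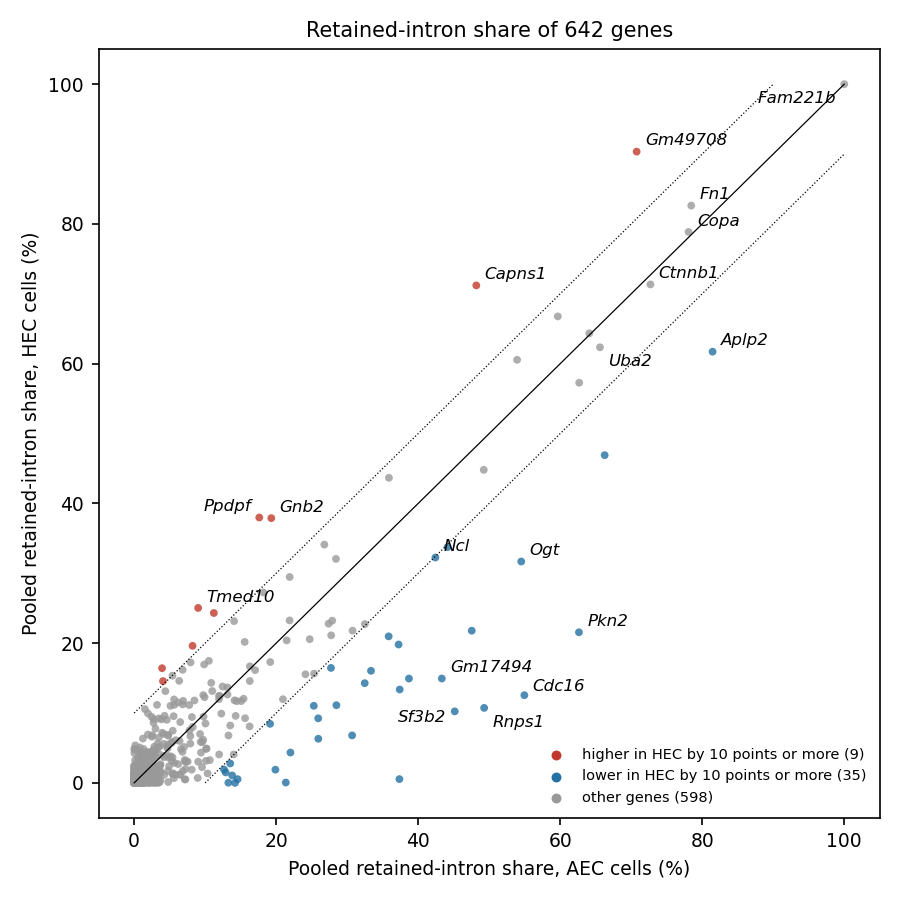
Each point is 1 of 642 genes, placed by the pooled retained-intron share (%) in HEC cells on the vertical axis and in AEC cells on the horizontal axis; the solid line marks equal shares and the dotted lines a difference of 10 points. Red points (9 genes) were higher and blue points (35 genes) lower in HEC cells by 10 points or more, and most of the 642 lie near the origin.

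In single cells the share of a gene ranged from none to all. Over 65 genes at 10% or more in both groups that have a coding transcript in the tables, 1443 pairs of a gene and a HEC cell and 989 pairs of a gene and an AEC cell had 20 reads or more of the gene. The share was exactly 0 in 16.1% of the HEC pairs and 20.5% of the AEC pairs, 90% or more in 4.23% of the HEC pairs and 14.2% of the AEC pairs, and in between in 79.7% of the HEC pairs and 65.3% of the AEC pairs. *Capns1* and *Sf3b2* had such cells at 0 and above 70% in each group. The median cell had 1493.5 retained-intron transcripts above 0 in HEC and 900 in AEC, at median depths of 724674 and 769715.5 reads. Because of PCR copies, 20 reads can stand for fewer molecules. What part this had in the contrast between the groups was not tested.

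**Figure D3:**
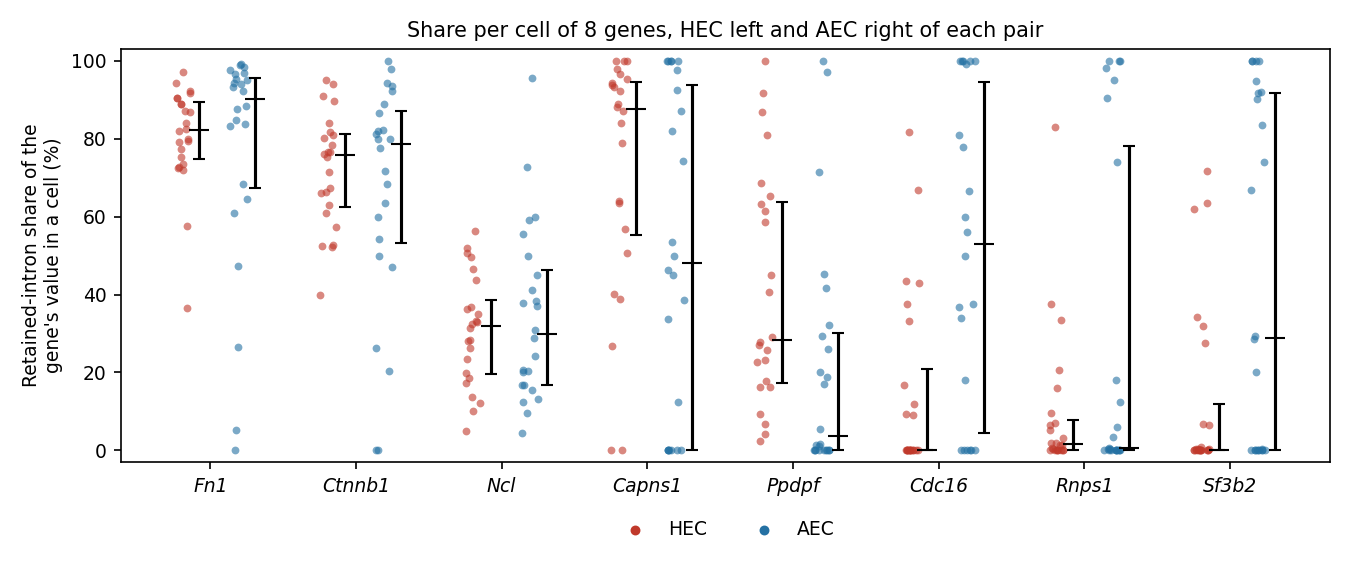
The retained-intron share of a gene's value (%, vertical axis) is shown for each cell in which the gene was above 0, for 8 genes, with HEC cells to the left and AEC cells to the right; the mark beside the points is the median with the quartiles. *Fn1* and *Ctnnb1* are high and *Ncl* intermediate in both groups, *Capns1* and *Ppdpf* have higher medians in HEC cells, *Cdc16* and *Sf3b2* have higher medians in AEC cells, and the medians of *Rnps1* are close.

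The structure of the transcripts was read for 1277 of the 1304, those of genes with an annotated coding transcript. Transcripts with a share of 10% or more of their gene over all 48 cells (75) mostly ended where coding transcripts end: 56.0% ended within 100 bases of a coding 3′ end, compared with 20.9% of the 828 with a share under 1%. Their median of bases in coding exons was 76.8%, compared with 52.8% for those under 1%. Of 74 with a coding transcript in the tables, 63 were shorter than the most abundant coding one, with medians of 1519 and 2861.5 bases. Only 37.3% of the 75 held a whole coding intron, close to the 35.1% of those under 1%. By the value they carried, transcripts that share only the 3′ end with a coding transcript were 15.3% of the 1277 but had 38.8% of the retained-intron value in HEC cells and 45.7% in AEC cells. Those sharing both ends had 15.1% in HEC cells and 10.4% in AEC cells, those sharing only the 5′ start 20.8% in HEC cells and 23.6% in AEC cells, and those sharing neither 25.4% in HEC cells and 20.3% in AEC cells. Counted without transcripts that end at a coding 3′ end, 30 genes had a share of 10% or more in both groups in place of 70, and with only transcripts that hold a whole intron 25 did; these subsets were chosen after the data were seen. Whether reads of spliced RNA that were cut short were placed on 3′ fragments such as *Gnb2-213* was not tested.

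**Figure D4:**
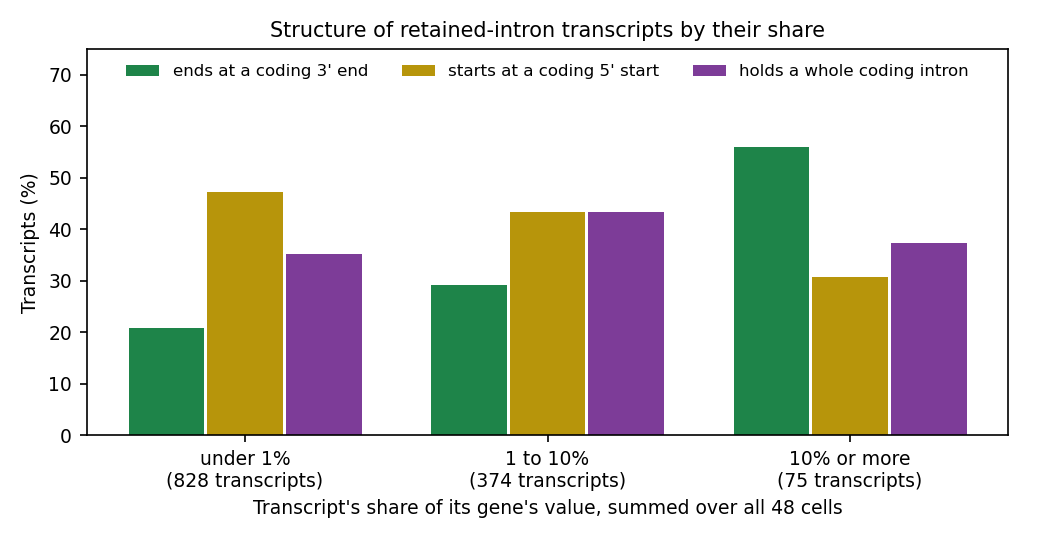
Bars give the percent of retained-intron transcripts (vertical axis) that end within 100 bases of a coding 3′ end, start within 100 bases of a coding 5′ start or hold a whole coding intron, for 3 ranges of the transcript's share of its gene (horizontal axis). The share that ends at a coding 3′ end is 20.9% in the lowest range and 56.0% in the highest.

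The 481 transcripts that held whole introns held 624 of them, with a median of 280 bases, against 1103 bases for the other 7211 introns of coding transcripts of these genes. Of the 624, 609 began with GT and ended with AG. The last 40 bases held the poly(A) signal AATAAA, read on the transcript's strand, in 208 of 324 retained-intron transcripts that end at a coding 3′ end (64.2%), in 107 of the other 953 (11.2%) and in 949 of 1762 coding transcripts of the same genes (53.9%). A match is a description of the letters and not of a used site.

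Genes of RNA splicing had higher median shares than all 642 genes, which is a description without a test. Over the lists of SR proteins, hnRNP proteins, core spliceosome proteins and the CLK and SRPK kinases, 39 genes were among the 642, and 12 of them (30.8%) had 10% or more in both groups, compared with 10.9% of all. Their median share was 5.23% in HEC cells and 5.39% in AEC cells, against 0.943% and 0.937% for all. The median level of the 39 genes, 2.12 reads per 10000, was near the 2.26 of all 642. The hnRNP list had a median of 11.6% in HEC cells and 9.04% in AEC cells over 10 genes, with *Ptbp1* and *Hnrnpl* (33.7% in HEC cells and 44.1% in AEC cells) as its highest. The SR list had 5.23% in HEC cells and 5.40% in AEC cells over 9 genes. *Srsf11* had 32.1% in HEC cells and 28.4% in AEC cells, on transcripts such as *Srsf11-213*, and *Srsf7* had 6.998% in HEC cells and 9.28% in AEC cells. The core spliceosome list had 3.92% in HEC cells and 3.59% in AEC cells over 19 genes, with *Rbm39*, a splicing regulator that binds U2AF, at 20.4% in HEC cells and 21.5% in AEC cells.

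Genes of the ribosome, of energy and of the cytoskeleton had low shares, but levels were not matched, and shares fell with gene level. Genes with a mean level between 1 and 2 had a median share of 2.23% in HEC cells and 2.44% in AEC cells. Between 5 and 20 it was 0.343% in HEC cells and 0.346% in AEC cells, and above 20 0.106% and 0.077%. Whether these lists lay below other genes of the same level was not tested. Over 58 genes of cytosolic ribosomal proteins the median was 0.374% in HEC cells and 0.454% in AEC cells, and 1 of them had 10% or more in both groups. That gene, *Rps20*, had 23.2% in HEC cells and 14.1% in AEC cells, on *Rps20-201*; its only coding transcript in the tables has 3706 bases and the retained-intron one 582. Copies of ribosomal protein genes and of *Gapdh* elsewhere in the genome make their counts uncertain. Nuclear genes of oxidative phosphorylation had 0.227% in HEC cells and 0.128% in AEC cells over 19 genes, translation factors 0.208% in HEC cells and 0.0230% in AEC cells over 23 genes, and the cytoskeleton and adhesion list 0.249% in HEC cells and 0.413% in AEC cells over 16 genes. Glycolysis genes had 0.0685% in HEC cells and 0.00479% in AEC cells over 7 genes, among them *Gapdh* at 6.79% in HEC cells and 13.3% in AEC cells. Single members stood out from their lists: *Eif4g1*, a scaffold of translation initiation, had 22.7% in HEC cells and 32.5% in AEC cells, and *Psma3*, a proteasome subunit, 22.8% in HEC cells and 27.4% in AEC cells.

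Lists closer to the identity of the cells were mixed. Endothelial and arterial genes had a median of 0.668% in HEC cells and 1.66% in AEC cells over 10 genes. The list's only difference of 10 points or more, picked after its values were seen, was *Eng*, a co-receptor of TGF-beta, with 0.0268% in HEC cells and 13.3% in AEC cells, where AEC 1 alone held the whole AEC value; without it the difference was 0.0268 points. *Egfl7*, a secreted protein of endothelium, had 13.7% in HEC cells and 13.1% in AEC cells, *Ramp2*, a partner of the adrenomedullin receptor, 5.85% in HEC cells and 5.35% in AEC cells, and *Pecam1*, an endothelial adhesion protein, 1.76% in HEC cells and 2.92% in AEC cells. The hemogenic and early blood list had 5.88% in HEC cells and 8.12% in AEC cells over 2 genes, and *Mecom*, whose zinc-finger transcription factor maintains blood stem cells, had 11.7% in HEC cells and 15.1% in AEC cells. Cell cycle genes had 1.89% in HEC cells and 1.76% in AEC cells over 12 genes, with the replication helicase gene *Mcm7* at 29.5% in HEC cells and 21.9% in AEC cells and the replication clamp gene *Pcna* at 14.3% in HEC cells and 10.9% in AEC cells. By the mean per cell *Pcna* had the other order, with 19.5% in HEC cells and 25.2% in AEC cells, and weighted by reads *Mcm7* had 20.8% in HEC cells and 22.3% in AEC cells. The proteasome list had 1.14% in HEC cells and 1.12% in AEC cells over 16 genes, and stress and immediate-early genes 0.301% in HEC cells and 0.238% in AEC cells over 5 genes. The list of small nucleolar RNA hosts had 10.3% in HEC cells and 11.9% in AEC cells over 2 genes, and that of nonsense-mediated decay and RNA quality control 9.10% in HEC cells and 27.4% in AEC cells over 2 genes. *Gas5*, with 16.1% in HEC cells and 17.03% in AEC cells, has no coding transcript, and its retained-intron transcripts hold up to 8 whole introns (*Gas5-218*).

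**Figure D5:**
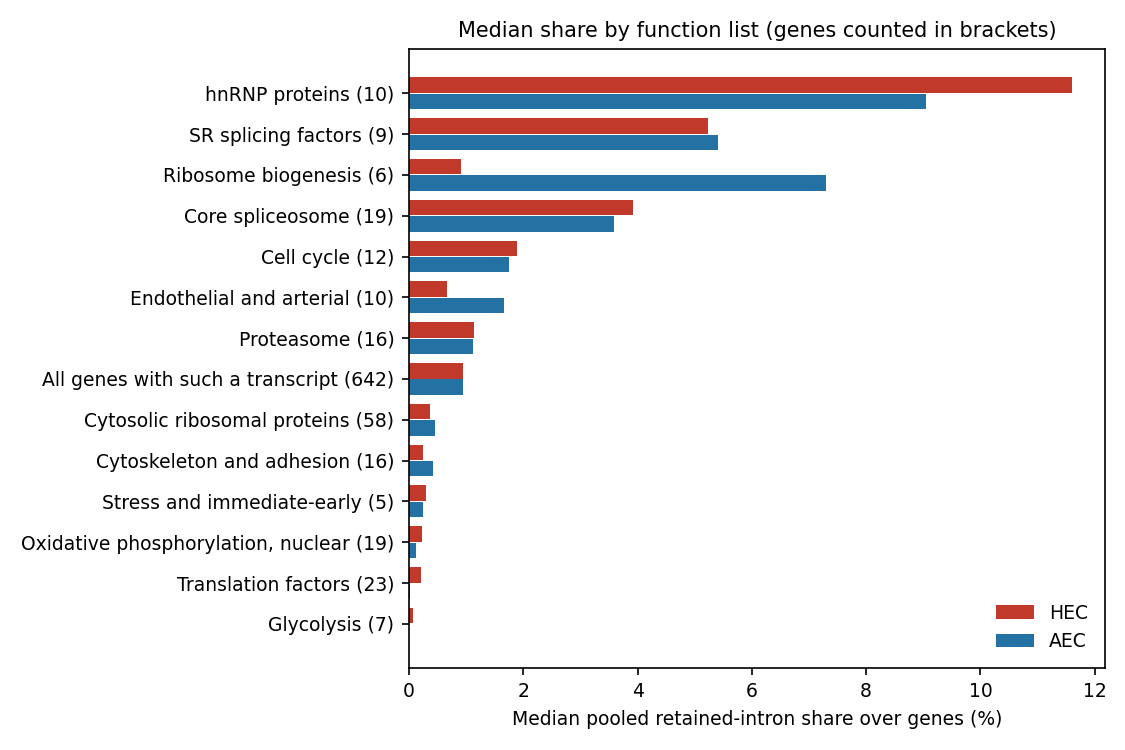
Horizontal bars give the median pooled retained-intron share (%) of the genes of each list with 5 genes or more, HEC above AEC, with the number of genes in brackets. The hnRNP list (11.6% in HEC cells, 9.04% in AEC cells) has the longest bars, and glycolysis (0.0685% in HEC cells, 0.00479% in AEC cells) the shortest.

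Between the groups, the pooled share differed by 10 points or more in 44 genes. It was higher in HEC cells in 9 of the 642 (1.4%) and lower in HEC cells in 35 (5.45%). The same sign was found by the mean per cell in 42 of the 44. As background, single transcripts of all other types in these genes were higher in HEC cells in 6.43% and lower in 6.05%, and single retained-intron transcripts were higher in 1.07% and lower in 2.99%. Summed over processed transcripts, 4 of 334 genes were higher (1.2%) and 15 lower (4.49%), and over targets of nonsense-mediated decay 10 of 244 were higher (4.1%) and 12 lower (4.92%). Summed over protein-coding transcripts, 5.52% of genes were higher and 2.17% lower. That is no separate background, because the shares of the types within a gene add to a fixed total. Many of the 44 rested on few cells: 1 cell held 50% or more of the retained-intron value of the higher group in 11 of them. Leaving out any 1 cell kept 6 of the 9 and 14 of the 35 at 10 points or more, and turned the sign in 6 of the 35.

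Among genes with lower shares in HEC cells, *Cdc16*, a subunit of the anaphase-promoting complex, had 12.6% in HEC cells and 55.0% in AEC cells. Its lowest, median and highest cell were 0%, 0% and 81.8% in HEC, against 0%, 53.0% and 100% in AEC. The retained-intron value was above 0 in 10 HEC and 16 AEC cells, and the difference of -42.4 points stayed between -47.2 and -32.2 when any 1 cell was left out. All of it was *Cdc16-205* (chr8:13779002-13781938, plus strand), of 884 bases, which ends at the base where a coding transcript ends. The gene itself was level, with 1.08 reads per 10000 in HEC cells and 1.06 in AEC cells.

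*Rnps1*, which encodes a protein of the exon junction complex that acts in splicing and nonsense-mediated decay, had 10.7% in HEC cells and 49.3% in AEC cells. Its cells had 0%, 1.56% and 83.1% (lowest, median, highest) in HEC and 0%, 0.522% and 100% in AEC, so the medians were close and the difference lay in the upper cells. *Sf3b2*, a subunit of the U2 particle that recognises the branch point, had 10.2% in HEC cells and 45.1% in AEC cells. Its cells had 0%, 0.190% and 71.6% in HEC and 0%, 28.9% and 100% in AEC, and without any 1 cell the difference of -34.9 points lay between -39.0 and -29.7. The AEC cells of *Sf3b2* at 100% had only 1 to 7 reads of the gene. Both genes carry the value mainly on 3′ transcripts, *Rnps1-208* and *Sf3b2-208*, which hold no whole intron.

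*Pkn2*, a serine/threonine protein kinase related to protein kinase C, had 21.6% in HEC cells and 62.6% in AEC cells, but AEC 10 held 50.1% of the AEC value. *Pkn2-213*, a single stretch of 3087 bases with 2.04% in coding exons, held 5.15% of the retained-intron value in HEC cells and 50.1% in AEC cells. Its mean in AEC cells was 0.543 with an SD of 2.66, a spread that places nearly all of it in a single cell. By the matching 50.1%, this was AEC 10, which had 21522 reads in all. The 50.1% therefore describes that cell and not the AEC group. The difference of -41.1 points was -24.0 without that cell, and weighted by reads the shares were 25.96% in HEC cells and 26.3% in AEC cells. *Cpxm1*, a carboxypeptidase-like secreted protein, had 21.8% in HEC cells and 47.5% in AEC cells; AEC 21 held 91.6% of the AEC value, and without it the difference of -25.8 points became 14.5. *Gm17494* had 14.9% in HEC cells and 43.3% in AEC cells, a difference of -28.4 points that was -18.5 without AEC 23 and -44.0 without AEC 6. *Aplp2*, of the amyloid precursor family, had 61.7% in HEC cells and 81.5% in AEC cells, and its difference of -19.7 points was -9.61 without HEC 7.

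Of the 39 splicing genes, 6 were lower in HEC cells by 10 points or more and 0 higher. Over all 642 genes 5.45% were lower and 1.4% higher. A share can be 10 points lower in HEC cells only where the AEC share is 10% or more. That held for 99 of the 642 genes. It held for 2 of 9 SR, 5 of 10 hnRNP and 6 of 19 core spliceosome genes, and for *Srpk1*. The contrast therefore partly restates the higher shares of splicing genes. Of the 6, 3 stayed at 10 points or more whichever cell was left out (*Sf3b2*, *Sf3b1* and *Snrnp70*). Besides *Sf3b2* and *Hnrnpl*, *Snrnp70*, the U1 particle protein, had 14.3% in HEC cells and 32.5% in AEC cells, *Srsf5* 11.03% in HEC cells and 25.3% in AEC cells, and *Srpk1*, a kinase of SR proteins, 19.8% in HEC cells and 37.2% in AEC cells; *Sf3b1* was the other and was picked after its values were seen. The difference of *Srsf5* was -14.3 points and -4.60 without AEC 17, that of *Srpk1* -17.4 and -5.31 without AEC 22, and that of *Hnrnpl* -10.4 and -3.68 without AEC 6. *Snrnp70* stayed between -21.6 and -12.2. Among ribosome biogenesis genes, 3 of 6 had an AEC share of 10% or more. The same 3 were lower in HEC cells by 10 points or more, against 5.45% of all. But each of the 3 was under 10 points without 1 AEC cell, given with its value. They were *Ncl*, *Nop56* and, named after its values were seen, *Nhp2* (-14.0 points, and -2.97 without AEC 22), and the list's median was 0.915% in HEC cells and 7.29% in AEC cells. *Nop56*, a core protein of box C/D small nucleolar particles, had 20.97% in HEC cells and 35.8% in AEC cells, a difference of -14.9 points that was -9.28 without AEC 6. *Ncl*, the gene of nucleolin, had 32.3% in HEC cells and 42.4% in AEC cells; its cells had 5.07%, 32.0% and 56.4% in HEC and 4.35%, 29.8% and 95.5% in AEC, and the difference of -10.2 points was -1.21 without AEC 6, which held 39.1% of the AEC value.

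Among genes with higher shares in HEC cells, *Capns1*, the regulatory subunit of calpain proteases, had 71.2% in HEC cells and 48.2% in AEC cells. Its cells had 0%, 87.7% and 100% (lowest, median, highest) in HEC and 0%, 48.2% and 100% in AEC. The difference of 23.02 points stayed between 19.4 and 26.6 when any 1 cell was left out, and the gene's level was 2.09 reads per 10000 in HEC cells and 2.10 in AEC cells. Its transcript *Capns1-208* (chr7:30186936-30192972, minus strand) differs from coding exons by 78 bases, most of them in the 5′ stretch printed above. *Ppdpf* had 37.98% in HEC cells and 17.6% in AEC cells, above 0 in 24 HEC and 15 AEC cells, with cells at 2.50%, 28.4% and 100% in HEC and 0%, 3.56% and 100% in AEC. Its main transcripts, *Ppdpf-206* and *Ppdpf-203*, keep the same intron of 72 bases, and the difference of 20.4 points lay between 17.8 and 22.5 without any 1 cell.

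*Gnb2*, a beta subunit of G proteins, had 37.9% in HEC cells and 19.3% in AEC cells, on *Gnb2-213*, whose 13 intronic bases are printed above. By the mean per cell its shares were 34.8 ± 32.5% in HEC cells and 28.6 ± 30.2% in AEC cells (SD, n = 24 and 22 cells), a gap well inside the spread. For *Capns1* this gap was 21.6 points (SD 31.2 in HEC cells and 41.1 in AEC cells) and for *Ppdpf* 20.1 (29.9 and 30.3). Both were below either SD. For *Cdc16* it was -36.1 (23.6 and 40.03), for *Rnps1* -19.6 (18.8 and 43.003) and for *Sf3b2* -31.9 (22.98 and 44.3). In size these lay between the HEC and the AEC SD. For *Gm17494* it was -34.1, larger than both SDs (9.55 and 28.7). *Tmed10*, a cargo receptor between the endoplasmic reticulum and the Golgi, had 25.04% in HEC cells and 9.01% in AEC cells, but weighted by reads 15.8% in HEC cells and 16.1% in AEC cells. *Wdr83os*, a small protein of the endoplasmic reticulum, had 24.3% in HEC cells and 11.2% in AEC cells, a difference of 13.1 points that was 7.29 without HEC 14. By the mean per cell it had 17.3% in HEC cells and 17.03% in AEC cells. *Gm49708* had 90.3% in HEC cells and 70.8% in AEC cells. *Rps27* was the only one of the 58 ribosomal protein genes that differed by 10 points, with 14.6% in HEC cells and 4.06% in AEC cells, and 8.44 points without AEC 7.

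The levels of the retained-intron transcripts themselves were compared for the 561 with a mean of 0.1 or more over the 48 cells, as the log2 ratio of HEC over AEC means with a pseudocount of 0.1. The ratio was 1 or more for 45 (8.02%) and -1 or less for 105 (18.7%), while over all 10423 transcripts it was so for 8.78% and 11.9%. The shares were 8.96% and 11% over protein-coding transcripts, 6.06% and 14.9% over targets of nonsense-mediated decay, and 8.47% and 18.4% over processed transcripts, so the share of lower retained-intron transcripts was near that of processed ones. The median was -0.16, against 0.03 over all transcripts. With a median-of-ratios scaling the median of all transcripts was -0.23 and that of retained-intron ones -0.42, and the counts were 27 higher and 163 lower; relative to the median of all, retained-intron transcripts lay at -0.20 with the first scaling and -0.19 with the second. Against their own genes, 335 of the 561 had a lower ratio than the gene, with a median gap of -0.09. The same count was not made over transcripts of other types, so it has no background.

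The transcripts named next were picked after their values were seen, from those found in 12 cells or more of HEC or of AEC. *Hsp90aa1-206* (15 HEC and 6 AEC cells) passed only through HEC cells, and *Bcr-203* (10 HEC and 16 AEC cells) only through AEC cells. Their ratios are therefore partly set by that filter. *Kit-208* (chr5:75649094-75656694, plus strand), of the stem cell factor receptor gene, had 1.27 ± 0.991 reads per 10000 in HEC cells and 0.122 ± 0.247 in AEC cells (SD, n = 24 cells each), a log2 ratio of 2.62. Its lowest, median and highest cell were 0, 1.09 and 3.87 in HEC, against 0, 0.00800 and 0.905 in AEC. The whole gene had a ratio of 2.28. *Kit-208* has 3175 bases, 85.7% of them in coding exons, ends 28 bases from a coding 3′ end and holds no whole intron. *Hsp90aa1-206*, of an inducible heat-shock protein gene, had a ratio of 2.70, with 47.7% of its HEC value in HEC 10, and 1.91 without that cell. *Rpl36a-206*, which holds a whole intron, had 1.68 ± 0.718 in HEC cells and 0.412 ± 0.533 in AEC cells (SD, n = 24 cells each), a ratio of 1.80 against 0.50 for the gene, and was above 0 in all 24 HEC cells. *Uba2-210* had 1.62 ± 1.43 in HEC cells and 0.395 ± 0.741 in AEC cells (SD, n = 24 cells each), a ratio of 1.79 against 0.98 for the gene.

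In the other direction, *Stab1-204*, of a scavenger receptor gene of endothelium and macrophages, had 0.147 ± 0.202 in HEC cells and 1.54 ± 2.40 in AEC cells (SD, n = 24 cells each), a log2 ratio of -2.73. Its lowest, median and highest cell were 0, 0.0730 and 0.635 in HEC, against 0, 0.335 and 10.6 in AEC, and without AEC 21 the ratio was -2.33. *Aplp2-207* had a ratio of -2.05 and the gene -1.69. *Bcr-203* had the lowest ratio, -4.41, but AEC 7 held 88.7% of its AEC value and the ratio was -1.67 without that cell. *Myl6-212*, of a myosin light chain gene, had -1.81, and 0.30 without AEC 21, which held 80.4% of the AEC value.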

How the data were processed

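Each of the 48 deposited tables holds 1 cell, 24 titled HEC and 24 titled AEC, with a signal per transcript that the authors gave as reads per 10000 reads of the cell. Per the submitters' processing notes, minimap2 2.18-r1015, Salmon 1.1.0 and build mm10 were used; their order, the annotation release, filters and strand use were not given in the sources used here. The values were whole multiples of the value of 1 read in 100% of cases, within 0.01 of a read, so reads and depth (13261 to 8897958 per cell) could be recovered; precision is limited by that depth.

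Transcripts were matched by identifier to GENCODE M21 (GRCm38), which gave gene and type for 52799 of 52927; the other 128 were left out of gene sums. Shares, group means and log2 ratios (pseudocount 0.1) were computed in Python (version 3.11.15), using pandas 2.3.3 on numpy 2.4.6; scipy 1.17.1 gave intervals and matplotlib 3.10.9 the figures. The share calculation was tested on simulated reads with the same share of a gene in every cell of a group. That covers counting error and not the spread between cells or PCR copies. A retained-intron transcript was compared with the exons of all coding transcripts of its gene in M21, and an end within 100 bases counted as shared. Sequences came from the M21 transcript file, which GENCODE provides for this build. No pair of cells was identical, with a highest Pearson r of 0.919.

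The labels name no animals, so no p-value was computed; a share differed when the pooled values lay 10 points apart, a level when the log2 ratio reached 1. The naming rule asked for retained-intron reads in 6 HEC and 6 AEC cells or more. It took the 20 genes with the highest mean of the pooled shares and up to 3 of each of 17 function lists. It also took the 6 largest differences in each direction where the gene itself was found in 12 HEC and 12 AEC cells or more. Outside it are genes at the level threshold, genes on the opposite strand, and those picked or named after their values were seen. The members, lists and rules were chosen with earlier results of these data known. Alternatives covered cells left out, depth, weighting, the minimum level, the denominator, pseudocount, scaling and subsets of the transcripts. Some items are not reported here.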

Additional observations from a re-analysis of the deposited data

How the results depend on the processing

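No paired analysis was possible because the cell numbers only name cells and no test was made. Leaving out 1 cell at a time, the retained-intron share of a cell averaged 2.82 to 2.91% in HEC cells and 3.21 to 3.36% in AEC cells, a difference of -0.477 to -0.332 points, and the median share of a gene was 0.877 to 1.02% in HEC cells and 0.841 to 0.967% in AEC cells. Then 65 to 74 genes had 10% or more and 10 to 12 genes 50% or more in both groups, 7 to 13 genes had higher and 30 to 39 lower shares in HEC cells, and 38 to 56 transcripts had higher and 94 to 113 lower levels.

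The other settings were each scored on 1 or more results, and 43 of the values so obtained moved beyond the limits used while 75 did not. The limit was the SD between cells for a share and a fixed ratio for a count. A gene mean of 2 or more left fewer genes to read. Of these, 19 reached 10% and 3 reached 50% in both groups, and 3 were higher and 6 lower in HEC cells. With 5 or more, from fewer genes still, the counts were 5, 2, 0 and 1. A difference of 20 points left 2 higher and 12 lower. Over retained-intron and coding transcripts alone, 17 genes reached 50%. Thinned to 10000 reads a cell, the median gene had 0% in HEC cells and 16 genes were higher. Over genes that carry a retained-intron transcript, the share of a cell was 5.90% in HEC cells and 7.07% in AEC cells, and without mitochondrial and ribosomal protein genes 3.38% in HEC cells. For levels, the higher and lower counts of the 561 transcripts were 94 and 159 with a pseudocount of 0.01, and 2 and 5 with 1. Only 19 retained-intron transcripts had a mean of 1 or more, of which 3 were higher and 6 lower. With median-of-ratios scaling the counts were 27 and 163, and with no minimum 178 of 9260 were lower. The same counts over all transcripts were not made at these settings, so they have no background.

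The remaining alternatives were chosen after the data were seen. With only transcripts that hold a whole intron the share of a cell was 1.24% in HEC cells and 1.31% in AEC cells, 25 genes reached 10% and 4 genes 50%, and 4 were higher and 14 lower. With only those under 50% in coding exons it was 0.982% in HEC cells and 1.07% in AEC cells, 17 reached 10%, 2 reached 50% and 14 were lower. Without those that end at a coding 3′ end it was 1.53% in HEC cells and 1.76% in AEC cells, 30 reached 10%, 3 reached 50%, and 5 were higher and 21 lower. Among cells with 100000 reads or more and without AEC 11, AEC 19, AEC 20 and HEC 20, 14 genes were higher and 41 lower. Leaving out only these named cells, a setting planned before, gave 12 higher and 40 lower. All of them are part of the main values. The sign turned for *Tmed10* weighted by reads (-0.252 points) and for *Cpxm1* by the mean per cell (1.37 points). The cause was not tested. Genes near 1 read per 10000 have few reads in shallow cells, and so do some of higher level such as *Ctnnb1*, which limits shares per cell.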
